A study of Mus musculus with 9 samples.

Results

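Cytosolic ribosomal protein genes were followed in 9 bulk RNA-seq libraries of mouse macrophages, with 3 lines in each of 3 groups. YS lines had been grown from the yolk sac of E9.5 embryos, FL lines from the fetal liver of E14.5 embryos and BM lines from adult bone marrow, all from C57BL/6 mice. Each culture started from the cells of more than 1 mouse and grew out from colonies during long culture with recombinant human M-CSF. In BM and FL cultures most adherent cells stopped dividing and died off as colonies appeared, while in YS cultures they did not always stop. YS cells were first seeded in wells and the others in dishes. Each culture was kept as a bulk line, so a line is neither an animal nor a clone. Separate dishes or wells count as separate lines. The members are the rows of the deposited gene table whose symbols are those of ribosomal proteins of the cytosol, without the S6 kinase genes and without pseudogene rows named -ps. This gave 88 of 24411 rows, which are 31 core genes of the small subunit, 46 core genes of the large subunit, 10 paralogs (second genes for a core protein) and Rps19bp1, a binding protein of RPS19 that is no subunit.

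The values are given as TPM, a transcript abundance in which reads are divided by transcript length and every library has the same sum, so levels can be compared between genes but the number of reads behind a value is unknown. A gene was tested when it reached 1 TPM in at least 3 of the 9 libraries, as 11753 genes and 85 members did. The 3 members left out were Rpl10l, at 0 in every line, Rpl39l, which reached 0.2 TPM, and Rpl3l, which reached 3.61 TPM in YS line 1 only. Group differences are given as log2 differences of TPM + 1 with their standard error (SE), a scale that understates the change of low genes, and a gene was called at an adjusted p under 0.1 in limma. The p-values measure the spread between lines, which was wider in YS lines than in the other groups. The median SD of a core gene on the log2 scale was 0.22 in YS, 0.12 in FL and 0.08 in BM lines, against 0.28, 0.18 and 0.11 over all tested genes.

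The macrophage identity of the cultures was checked with 8 marker genes, and all 8 were expressed, though not alike in all groups. Fcgr1 was at 5.47, 42.1 and 1.68 TPM in BM lines, against 110 to 330 TPM in YS and FL lines. It was called higher in both than in BM lines (4.65 and 4.02). Mertk was called higher in FL than in BM lines (1.99), and Lyz2 lower in YS than in FL lines (−2.37). Summed, the 8 markers reached 4215 to 9309 TPM (YS), 11786 to 28521 TPM (FL) and 11717 to 13299.7 TPM (BM), with most of the range from Lyz2. Of 23 markers of other cell types, 16 stayed under 1 TPM in every line, and Elane (granulocyte) and Cd3e (T cell) were listed at 0 throughout. The granulocyte gene S100a8 was at 10.5, 25.1 and 24.2 TPM in FL lines, 2.19, 0 and 0.54 TPM in YS lines and 5, 3.43 and 3.66 TPM in BM lines. It was called higher in FL than in BM lines (1.98) and lower in YS than in FL (−3.53) and BM lines (−1.55). Afp reached 20.5 TPM in FL line 3 and Pecam1 reached 8.17 TPM in YS line 2. The 23 markers summed to 249.7 to 2138 TPM (YS), 662 to 1752 TPM (FL) and 55.1 to 634 TPM (BM), most of it from Pf4, a platelet gene that some macrophages express. The erythroid genes Hba-a1 and Hbb-bt stood at 215 and 12.6 TPM in BM line 2 and at no more than 8.62 TPM in any other line. The part of these transcripts in the results was not tested, and values without BM line 2 are given where they differ. In bulk libraries such as these, fewer cells of a type and less RNA per cell cannot be told apart.

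Ribosomal proteins assemble with ribosomal RNA in the nucleolus into a small subunit, which reads the mRNA, and a large subunit, which joins amino acids. Because the subunits need their proteins in equal numbers, the genes are expressed at high and similar levels, and their mRNAs begin with a stretch of pyrimidines that lets mTOR signaling switch their translation together. Growing cells spend a large part of their mRNA on these genes, and macrophages kept in M-CSF are growing cells. A few members have a paralog, and some members act outside the ribosome, among them those that bind MDM2, the ubiquitin ligase of p53.

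The core genes were among the most abundant transcripts of all lines. Core genes made up 34 of the 100 genes with the highest mean TPM, and 71 of the 77 core genes had a mean between 499 and 4387 TPM. The median of the means was 1349 TPM for the small subunit and 1046 TPM for the large subunit, against 27.6 TPM over all tested genes. Rplp1, a protein of the stalk that recruits elongation factors, was the highest core gene in every line, with 5799.7, 4282 and 4998 TPM in YS, 3962, 3707 and 3309 TPM in FL and 4600.0, 4468 and 4357 TPM in BM. Rpl19 and Rpl10 followed in the large subunit at 2443 ± 332 and 2202 ± 330 TPM (mean ± SD, n = 9). In the small subunit Rps12, Rps14 and Rps3a1 were highest, at 2293 ± 338, 1882 ± 438 and 1712 ± 408 TPM.

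The 6 core genes under 200 TPM were Rpl22, which has an expressed paralog, and 5 genes with a near-identical copy elsewhere in the table. Rps27 was listed at 5.42, 7.66 and 12.6 TPM in YS, 9.63, 6.07 and 7.05 TPM in FL and 5.61, 3.5 and 4.38 TPM in BM, while Rps27rt, whose coding sequence is 100% identical over 252 bases, held 1477, 1412 and 1715 TPM in YS, 1016, 1083 and 829.7 TPM in FL and 1298, 1180.0 and 1152 TPM in BM. Rpl26 was listed at 0 in 6 lines and at 25.1 TPM at most, and its copy Gm15772, 99.5% identical, held between 1346 and 1946 TPM. Rpl30 was between 21.4 and 50.8 TPM beside Gm12191 at 1120 to 1695 TPM, and Rpl34 was between 13.3 and 37.6 TPM beside Rpl34-ps1 at 673 to 1638 TPM. Rps15a, at 99.5 to 169.5 TPM, shared its level with Rps15a-ps6, at 75.2 to 142 TPM. Reads from such copies cannot be told apart, so the separate values of these 5 genes are uncertain and their sums are the usable measure. After the copies were added, Rps27 reached 837 to 1727 TPM, Rpl26 reached 1352 to 1946 TPM and Rpl30 reached 1155 to 1716 TPM. Rpl34 reached 686 to 1657 TPM. These 4 lay within the range of the other core genes. Rps15a reached only 222 to 377 TPM with Rps15a-ps4 and Rps15a-ps6 added. This is below 499 TPM, the lowest mean of the 71 usual core genes. The 7 rows named -ps that otherwise fit the symbols together held 1308 to 2629 TPM per line, or 0.13% to 0.26% of the total.

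FL lines spent the smallest share of their TPM on ribosomal protein genes. The 88 members took 11.91%, 9.68% and 9.88% in YS lines, 8.57%, 8.6% and 7.69% in FL lines, and 9.82%, 9.62% and 9.58% in BM lines. All 3 FL lines were below all 6 others, and YS line 1 stood above the rest, while YS lines 2 and 3 lay at the level of the BM lines. The means were 10.49% ± 1.24, 8.29% ± 0.52 and 9.67% ± 0.13 (SD, n = 3 each). Both subunits followed the same order, with the small subunit at 4.29% ± 0.56, 3.37% ± 0.20 and 3.97% ± 0.09 and the large subunit at 5.91% ± 0.68, 4.69% ± 0.29 and 5.41% ± 0.04 in YS, FL and BM lines. With the near-identical copies added the shares were 10.3% to 12.5% in YS, 8.07% to 9.01% in FL and 10.1% to 10.3% in BM lines. YS line 1 was the highest of the 9 lines for 53 of the 77 core genes, and FL line 3 was the lowest for 44. Over all tested genes these lines were highest and lowest for 27.3% and 9.11%.

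**Figure D1:**
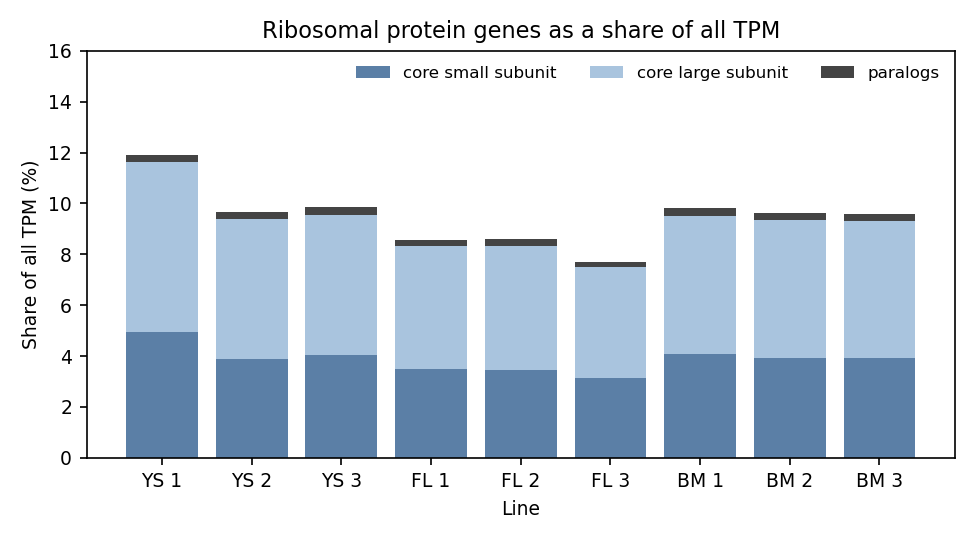
Stacked bars give the share of all TPM (%) taken by the core genes of the small subunit, the core genes of the large subunit and the paralogs in each of the 9 lines. The 3 FL lines lie between 7.69% and 8.6%, below the YS and BM lines, and YS line 1 is highest at 11.91%.

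The comparison of YS with FL lines asked how the 2 embryo-derived groups differ, and here the family moved mostly one way. Of the 85 members tested, 24 were called higher in YS lines and 0 lower, that is 28.2% and 0% of the members, where 6.2% and 6.56% of all tested genes were called. At an unadjusted p under 0.05 limma gave 42 members higher and 0 lower, where 1523 and 1493 of the 11753 tested genes were higher and lower. The median log2 difference of the core genes was 0.34, against 0.02 over all tested genes, and 69 of 77 were above 0. Groups did not overlap for 35 of the 77 core genes (45.5%, where 26.1% of all tested genes did not overlap), each of them higher in YS lines. The calls were spread over both subunits, with 9 of 31 small subunit genes and 12 of 46 large subunit genes, and included the paralogs Rps4l, Rps27rt and Rpl37rt.

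Among the called members, those with the largest differences after Rps4l were Rpl4, Rps3a1, Rplp0 and Rps27rt. Rpl4, a protein of the large subunit that lines the exit tunnel, was at 2813, 1724 and 2385 TPM in YS, 1558, 1109 and 1156 TPM in FL and 1523, 1560.0 and 1549 TPM in BM. The YS lines were all above the FL lines, by 1.79-fold on this scale (0.84 ± 0.20 (SE), adjusted p = 0.051). Rps3a1, on the small subunit near the mRNA exit, was at 2277, 1994 and 2127 TPM in YS, 1376, 1169.9 and 1139 TPM in FL and 1756, 1695 and 1873 TPM in BM, 1.74-fold higher in YS than in FL lines (0.80 ± 0.12 (SE), adjusted p = 0.016). Rplp0, the base of the stalk, was at 2124, 1654 and 2101 TPM in YS, 1331, 1209.9 and 1135 TPM in FL and 1519, 1491 and 1602 TPM in BM (0.67 ± 0.13 (SE), adjusted p = 0.032). For Rps3a1 and Rplp0 the BM lines lay between the YS and FL lines, and for Rpl4 they lay with FL line 1 above the other FL lines. Rps27rt, whose values are given above, was uncertain on its own and differed by 0.66 ± 0.13 (adjusted p = 0.039). Its sum with Rps27 gave 0.65 ± 0.13 (adjusted p = 0.04).

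The number of calls between YS and FL lines rested on single libraries, the median less so. Without FL line 2 or FL line 3 it was 3 and 2, and without BM line 1, 2 or 3, which enter the fit through the shared estimate of the spread, it was 9, 8 and 9. The share of all tested genes called higher fell with them, to 1.21% and 1.06% without FL line 2 or 3 and to between 2.32% and 2.72% without a BM line. A fit of the YS and FL lines alone called 1 member higher, where it called 0.408% of all tested genes. Without the filter on low values 4 were called, where 1.01% of all tested genes were called higher. At a false discovery rate of 0.05 there were 7, and the share of all tested genes at that threshold is not given here. Rpl4, Rplp0 and Rps27rt lost their call without FL line 3, Rpl4 and Rplp0 also without FL line 2, and all 4 named genes in the fit of the YS and FL lines alone. The median of the core genes was 0.22 without YS line 1.

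FL lines were compared with BM lines to ask how fetal liver macrophages differ from adult marrow macrophages, and 11 members were called lower in FL lines and 0 higher. These are 12.9% and 0% of 85 members, where 10.6% of all tested genes were called lower and 17% higher. At an unadjusted p under 0.05 limma gave 19 members lower and 0 higher, where 1509 and 2443 of the 11753 tested genes were lower and higher. The core genes had a median log2 difference of −0.23, against 0.09 over all tested genes, and 62 of 77 were below 0. Groups did not overlap for 41 core genes (53.2%, near the 49.5% of all tested genes), with 38 lower and 3 higher in FL lines. The higher ones were Rpl35a and, with uncertain separate values, Rpl34 and Rps27, whose differences turned from 0.47 and 0.64 to −0.24 and −0.31 when the copies were added. The 10 core genes called were Rpl39, Rpl17, Rpl36a, Rps14, Rps3a1, Rpl21, Rpl5, Rps4x, Rpl6 and Rps9, and the paralog was Rps27l.

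Rpl39, a very short protein at the end of the exit tunnel, had the largest difference among the called members, with 586, 812 and 660.3 TPM in YS, 624, 769 and 573 TPM in FL and 1202, 1153 and 1149 TPM in BM (−0.84 ± 0.15 (SE), adjusted p = 0.0063). Rpl17, which sits at the mouth of the tunnel, was at 1489.8, 1765 and 1578 TPM in YS, 1534, 1395 and 1411 TPM in FL and 2468, 2279 and 2605 TPM in BM (−0.76 ± 0.11 (SE), adjusted p = 0.003). Both genes were higher in all BM lines than in any YS or FL line. The same was true of Rpl36a at 568, 642 and 763 TPM in YS, 619.9, 684 and 531 TPM in FL and 1026, 973 and 978 TPM in BM (−0.71 ± 0.14 (SE), adjusted p = 0.0091) and of Rps14, a protein of the small subunit platform, at 1855, 1915 and 1369 TPM in YS, 1434, 1655 and 1494 TPM in FL and 2509.7, 2226 and 2477 TPM in BM (−0.65 ± 0.15 (SE), adjusted p = 0.017). The count of members called lower was 26 without YS line 1 and 6 without FL line 3, BM line 1 or BM line 2, and 2 members were called higher without YS line 1 and 1 without YS line 3. The share of all tested genes called lower was 14% without YS line 1 and 8.37%, 6.23% and 7.71% without FL line 3, BM line 1 or BM line 2. The share called higher was 23.2% without YS line 1 and 20.1% without YS line 3. With median-of-ratios scaling 29 members were called lower, and 13.6% of all tested genes.

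The comparison of YS with BM lines, the one with the most called genes, showed members moving in both directions. Of 85 members, 15 (17.6%) were called higher in YS lines and 9 (10.6%) lower, where 23.5% and 14.4% of all tested genes were called, so the members' shares lay below the background in both directions. The core genes had a median of 0.14, against 0.11 over all tested genes. The core median was 0.07 without YS line 1 and 0.23 without YS line 2. Of the core genes, 33 (42.9%) did not overlap between the groups, where 49% of all tested genes did not. The median of all genes shifted by 0.11 to 0 under median-of-ratios scaling, in which the core median was 0.03. With that scaling 5 members were called higher and 9 lower, where 18.1% and 18.9% of all tested genes were called. By subunit, the main fit called 5 small and 7 large subunit genes higher and 3 and 4 lower. Rps19bp1 was also higher, at 72.1, 70.1 and 64.7 TPM in YS, 55.3, 47.5 and 60.5 TPM in FL and 50, 51 and 59.4 TPM in BM (0.36 ± 0.12 (SE), adjusted p = 0.056).

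The largest rises after Rps4l were in Rps27, Rpl8, Rpl29 and Rpl4. Rps27 rose by 0.75 ± 0.30 from its uncertain low values, with groups that overlapped (adjusted p = 0.092), and by 0.34 ± 0.13 as a sum with Rps27rt (adjusted p = 0.09). Rpl8, a protein close to the catalytic center of the large subunit, was at 2749, 1882 and 1566 TPM in YS, 1448, 1258 and 1242 TPM in FL and 1090.2, 1418 and 1389 TPM in BM (0.64 ± 0.21 (SE), adjusted p = 0.051). Rpl29, also known as a heparin-binding protein, was at 1842, 1305 and 1001 TPM in YS, 1195, 903 and 885 TPM in FL and 823, 919.7 and 864 TPM in BM (0.63 ± 0.22 (SE), adjusted p = 0.062). Rpl4 differed by 0.55 ± 0.20 (adjusted p = 0.068). In each of Rpl8, Rpl29 and Rpl4 all YS lines were above all BM lines, and YS line 1 was the highest of all 9. Without YS line 1 the differences were 0.41 for Rpl8, 0.40 for Rpl29 (adjusted p = 0.12) and 0.39 for Rpl4 (adjusted p = 0.15), and of these only that of Rpl8 was still called. All 3 calls were also lost without BM line 1 or BM line 3.

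Among the called members, the largest falls after Rpl22l1 were those of Rpl39, Rpl17, Rpl36a and Rps14, which also had the largest falls among the members called in FL against BM lines. Their log2 differences between YS and BM lines were −0.78 ± 0.15, −0.61 ± 0.11, −0.60 ± 0.14 and −0.50 ± 0.15 (SE), with adjusted p-values of 0.0085, 0.0074, 0.015 and 0.038. The BM lines are shared by both comparisons, so these are not separate observations of the BM level. Between YS and FL lines the 4 genes differed by 0.06 to 0.15, and none was called. The count of members higher in YS lines was 9 without YS line 1, 3 without BM line 1, 5 without BM line 2 and 2 without BM line 3, and the count of lower members was 5 without BM line 2. The share of all tested genes called higher was 22.7%, 14%, 17.1% and 13.3% in those fits, and the share called lower was 10.6% without BM line 2.

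**Figure D2:**
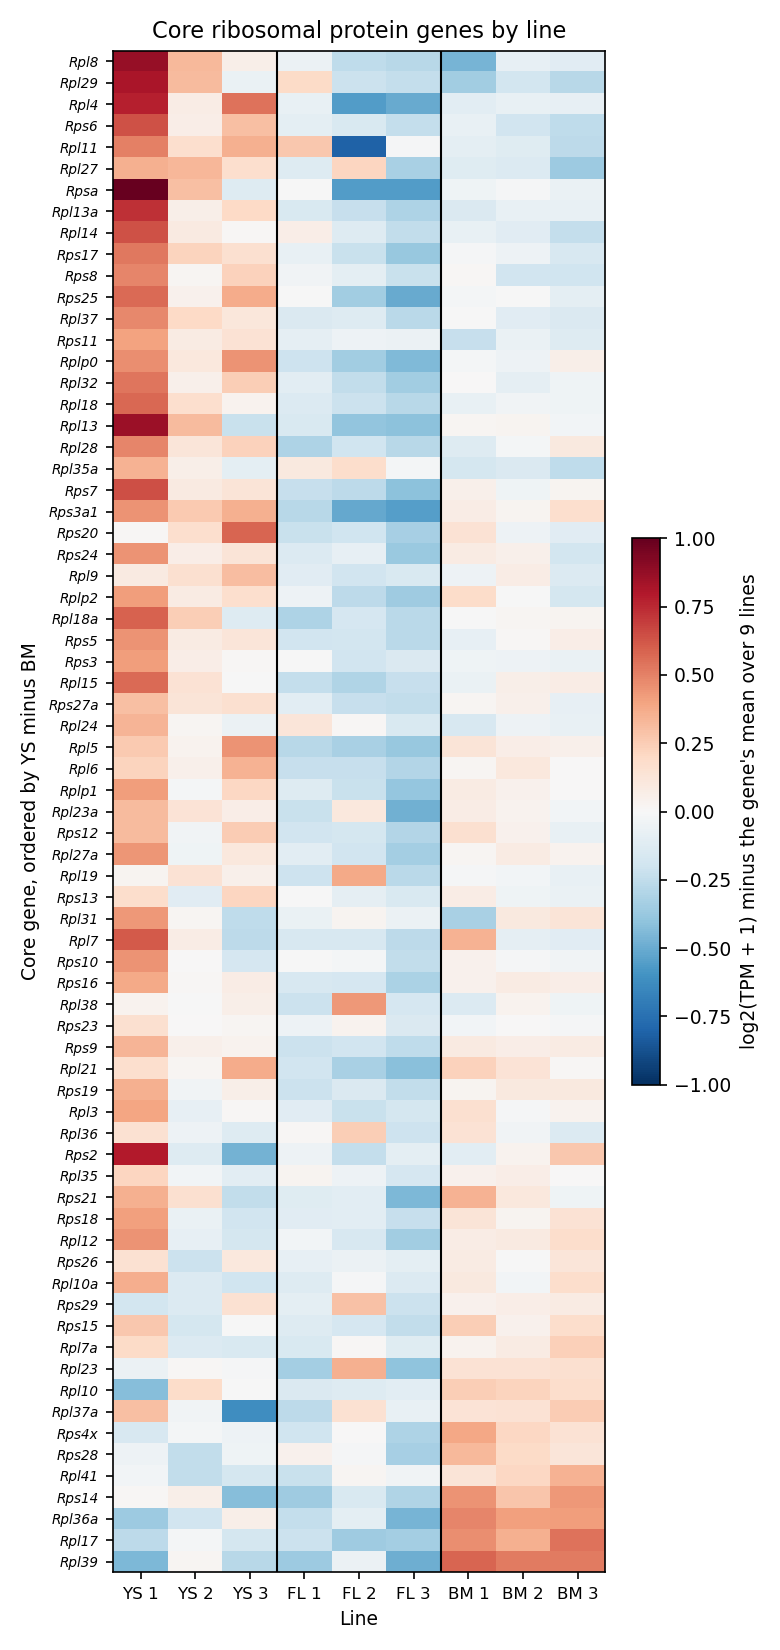
Each row is 1 of the 71 core genes with a mean of at least 200 TPM, ordered by the YS minus BM difference, and each column is 1 line, with color for log2(TPM + 1) minus the gene's mean over the 9 lines. YS line 1 is red through most rows, FL lines are mostly blue, and Rpl39, Rpl17, Rpl36a and Rps14 at the bottom are red in the 3 BM lines.

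**Figure D3:**
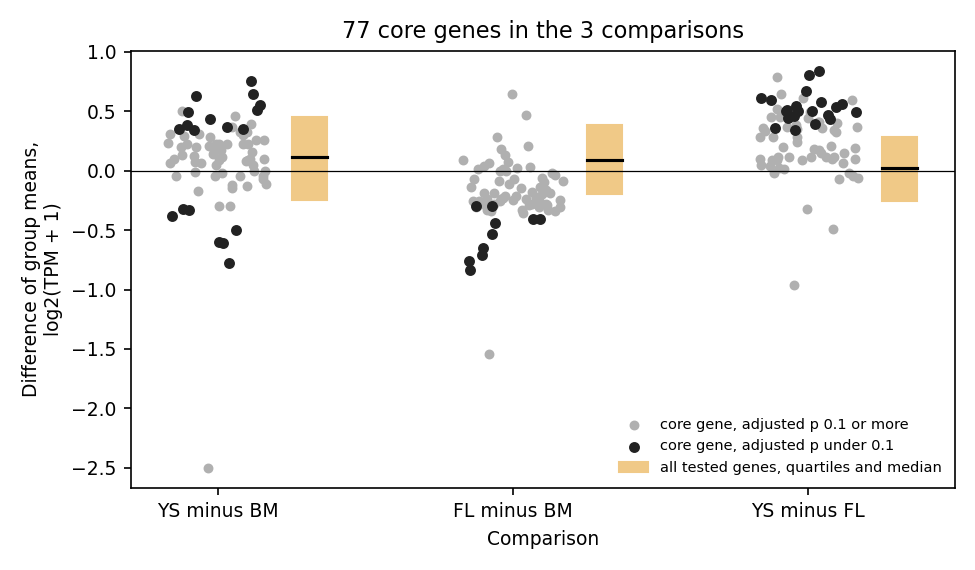
Points are the log2 differences of the 77 core genes in the 3 comparisons, dark where the adjusted p was under 0.1, and boxes give the quartiles and median of all tested genes. The core median is 0.14 between YS and BM, −0.23 between FL and BM and 0.34 between YS and FL lines, and the lowest points at −2.50 and −1.54 are Rpl26, which was listed at 0 in most lines.

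Members with known tasks outside the ribosome or at known sites included called and uncalled genes. Of the proteins that bind MDM2, Rpl5 was at 855, 732 and 974 TPM in YS, 587, 569.7 and 548 TPM in FL and 779.6, 748 and 739 TPM in BM, higher in YS than in FL lines (0.58 ± 0.12 (SE), adjusted p = 0.038) and lower in FL than in BM lines (−0.41 ± 0.12 (SE), adjusted p = 0.041). Rpl11, its partner in the same complex, was at 1968, 1559 and 1779 TPM in YS, 1678, 793 and 1379 TPM in FL and 1295, 1279 and 1158 TPM in BM, with FL line 2 far below all others. Rpl23 was at 1131, 1191 and 1173 TPM in YS, 930.3, 1508 and 894 TPM in FL and 1301, 1305 and 1318 TPM in BM, with FL line 2 above all others. Neither Rpl11 nor Rpl23 was called in any comparison. Mdm2 itself was at 37.8, 39.9 and 56.7 TPM in YS, 52.5, 84.8 and 171 TPM in FL and 199.5, 159 and 167 TPM in BM, lower in YS than in BM lines (−1.96 ± 0.37 (SE), adjusted p = 0.0076). Trp53, which encodes p53, was at 266, 214 and 183 TPM in YS, 192, 121 and 154 TPM in FL and 89.4, 109.6 and 98 TPM in BM, higher in YS than in BM lines (1.14 ± 0.19 (SE), adjusted p = 0.0052) and in FL than in BM lines (0.63 ± 0.19 (SE), adjusted p = 0.053). Mdm4, the relative of Mdm2, was at 30.9, 22 and 19.5 TPM in YS, 23.1, 42.7 and 20.4 TPM in FL and 45.4, 35.1 and 35.8 TPM in BM and was not called.

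Of the stalk proteins, Rplp0 was called higher in YS than in both other groups (0.34 ± 0.13 against BM, adjusted p = 0.081). Rplp1 and Rplp2, which form the dimers of the stalk, had log2 differences of 0.45 ± 0.15 each between YS and FL lines, with adjusted p-values of 0.10 and 0.11, and their YS and FL lines did not overlap. Rplp2 was at 2446, 1937 and 2052 TPM in YS, 1762, 1521 and 1424 TPM in FL and 2076, 1819.7 and 1613 TPM in BM.

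Rps6, the S6 kinase target that serves as a readout of mTOR activity, was at 1269, 855 and 1006 TPM in YS, 765, 735 and 692 TPM in FL and 774, 715 and 685 TPM in BM. It was higher in YS than in BM (0.51 ± 0.15 (SE), adjusted p = 0.034) and in YS than in FL lines (0.50 ± 0.15 (SE), adjusted p = 0.084), and every YS line was above all others. Rpsa, also known as a laminin receptor, was at 2828, 1644 and 1221 TPM in YS, 1333, 906 and 907 TPM in FL and 1294, 1327 and 1275 TPM in BM. The YS lines spanned the values of the BM lines and FL line 1, FL lines 2 and 3 lay below them, and the gene was not called. Rps2 and Rpsa had the widest spread within YS lines of the 71 usual core genes, with SDs of 0.66 and 0.61 on the log2 scale, and YS line 1 was highest in both. Rps27a, which is made as a fusion with ubiquitin, was at 1648, 1468 and 1497 TPM in YS, 1243, 1144 and 1127 TPM in FL and 1359.8, 1391 and 1267 TPM in BM, higher in YS than in FL lines (0.39 ± 0.10 (SE), adjusted p = 0.064). Rps19, the gene most often mutated in Diamond-Blackfan anemia, was at 1324, 1014 and 1080.2 TPM in YS, 895, 936 and 873 TPM in FL and 1056, 1112 and 1109.8 TPM in BM and was not called.

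The remaining genes at the top and bottom of the subunits were not called in any comparison. Rpl10, an X-linked protein of the large subunit that joins late in assembly, was at 1620.3, 2472 and 2168 TPM in YS, 1968, 1987 and 2022 TPM in FL and 2584, 2537 and 2458 TPM in BM, with YS line 1 lowest. Rps12 was at 2829, 2211 and 2711 TPM in YS, 1985, 2006 and 1859 TPM in FL and 2538, 2339 and 2159 TPM in BM, with all FL lines below all others. Rpl19 was at 2464, 2679.9 and 2504 TPM in YS, 2099, 3145 and 2009 TPM in FL and 2400.4, 2379.7 and 2306 TPM in BM, with FL line 2 above all others. Rps3, which also has a role in DNA repair, was at 862, 673 and 649.5 TPM in YS, 643, 563 and 581 TPM in FL and 624, 623 and 616 TPM in BM, a narrow range apart from YS line 1.

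All members called past 2-fold were paralogs. Between YS and BM lines these were Rps4l and Rpl22l1, between YS and FL lines Rps4l, and between FL and BM lines none, where 12.8%, 3.79% and 10.3% of all tested genes were called past 2-fold. The core gene Rpl26, with its uncertain values near 0, was past 2-fold without a call between YS and BM lines and between FL and BM lines. Rpl22l1 was past it without a call in both comparisons with FL lines, and Rps4l between FL and BM lines. Within a library, the ratio of a paralog to its partner does not depend on scaling. It was compared for 7 pairs in 21 exact two-sided permutation tests, in which the smallest possible p with 3 lines against 3 is 0.1 and the smallest adjusted p was 0.21, so no ratio could pass. The groups did not overlap in 10 of the 21. Among these were Rps27l to Rps27 in both comparisons with BM lines and Rps27rt to Rps27 in FL against BM lines. Those ratios rest on the uncertain separate values of Rps27. The levels of 49%, 49.5% and 26.1% of all tested genes did not overlap in YS-BM, FL-BM and YS-FL. No such share was taken for ratios of other genes.

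Rps4l, an autosomal copy of the X-linked Rps4x that RefSeq lists as a transcribed pseudogene, had YS values of 33.6, 114 and 169.5 TPM. The FL values were 0.18, 0 and 0.17 TPM, and the BM values 0, 23.3 and 0.34 TPM. All YS lines were above all other lines, with BM line 2 nearest to them. The log2 difference was 4.78 ± 1.11 (SE) against BM lines (adjusted p = 0.016) and 6.30 ± 1.11 against FL lines (adjusted p = 0.026). Rps4l passed the filter on low values only through lines in which it is high, so these tests do not support the difference beyond the values themselves. The difference from BM lines was 6.24 without BM line 2 (adjusted p = 0.0012). Its longest transcript matched the coding sequence of Rps4x at 79.95% of 783 aligned bases. It made up 2.44%, 7.13% and 10.5% of the sum of both genes in YS lines and 1.33% in BM line 2. Rps4x itself was at 1344, 1480.4 and 1444 TPM in YS, 1306, 1507 and 1208 TPM in FL and 1957, 1729 and 1659 TPM in BM, lower in YS (−0.32 ± 0.12 (SE), adjusted p = 0.081) and in FL than in BM lines (−0.41 ± 0.12 (SE), adjusted p = 0.046).

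BM line 2 held 20.5% of the Rps4l level of YS line 2. This line also held other transcripts that were high in YS line 2 and nearly absent from the other BM lines. For the 45 genes, Rps4l among them, that reached at least 20 TPM in YS line 2 but stayed below 0.5 TPM in the other BM lines, the level in BM line 2 was a median of 14.1% of that in YS line 2 (quartiles 10.7% and 17.7%). The 45 genes were chosen by their level in YS line 2, and no such ratio was taken to the other YS lines or to FL lines. Hba-a1 and Hbb-bt, at 215 and 12.6 TPM in BM line 2, were listed at 0 in YS line 2. The part of the shared transcripts in the Rps4l value of BM line 2 was not tested.

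Rpl22l1, the paralog of Rpl22 known from developing blood cells, had YS values of 36.1, 99.1 and 20.6 TPM, FL values of 59.2, 243 and 84.9 TPM and BM values of 258, 275 and 330.1 TPM. Every BM line was above every other line, and FL line 2 came close to them. The log2 difference was −2.74 ± 0.61 (SE) between YS and BM lines (adjusted p = 0.014) and −1.41 ± 0.61 between FL and BM lines (adjusted p = 0.15). Rpl22 was at 208, 154 and 189 TPM in YS, 165, 80.2 and 133 TPM in FL and 161, 146 and 134 TPM in BM, with no call. Rpl22l1 thus made up 61.6%, 65.3% and 71.2% of the sum of both genes in BM lines, 26.4%, 75.2% and 39% in FL lines, and 14.8%, 39.1% and 9.80% in YS lines. FL line 2 had the lowest Rpl22 and the highest Rpl22l1 of its group.

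Rps27l, a p53-inducible relative of Rps27, was at 420.1, 397 and 476 TPM in YS, 426, 406 and 337 TPM in FL and 566, 623 and 559.9 TPM in BM. It was lower in YS (−0.44 ± 0.12 (SE), adjusted p = 0.03) and in FL than in BM lines (−0.58 ± 0.12 (SE), adjusted p = 0.012). Its share of the sum with Rps27 and Rps27rt was 21.6% to 22.1% in YS, 27.1% to 29.4% in FL and 30.3% to 34.5% in BM lines, and no groups overlapped. Rpl36al, with 87.7% identity to the coding sequence of Rpl36a, was at 611, 552 and 699 TPM in YS, 574, 653 and 502 TPM in FL and 545, 579.7 and 556 TPM in BM and was not called in any comparison. With Rpl36a lower in YS and FL lines, the share of Rpl36al was 48.6% ± 2.86 in YS and 48.5% ± 0.396 in FL lines against 36.1% ± 1.32 in BM lines (SD, n = 3 each).

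Rpl7l1, a relative of Rpl7 with 62.1% identity, was at 108, 74.3 and 58.2 TPM in YS, 85.1, 91.9 and 82.7 TPM in FL and 80.7, 83.3 and 82.5 TPM in BM. Its share of the sum with Rpl7 was 4.85% to 4.91% in YS and 6.52% to 6.98% in FL lines, and 4.44%, 6.08% and 6.13% in BM lines, which spanned the YS range, and it was not called. Rpl37rt, a retrotransposed copy whose transcript is 99.7% identical to the coding sequence of Rpl37, was at 121, 104 and 90.4 TPM in YS, 78.9, 77.8 and 67 TPM in FL and 99.5, 79.7 and 89 TPM in BM. It was called higher in YS than in FL lines (0.48 ± 0.14, adjusted p = 0.078), as was Rpl37 (0.44 ± 0.12, adjusted p = 0.065), and the 2 cannot be separated. Rpl3l, the muscle form of Rpl3, was at 3.61, 0.92 and 0.53 TPM in YS, 0, 0.13 and 0.31 TPM in FL and 0, 0 and 0 TPM in BM.

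**Figure D4:**
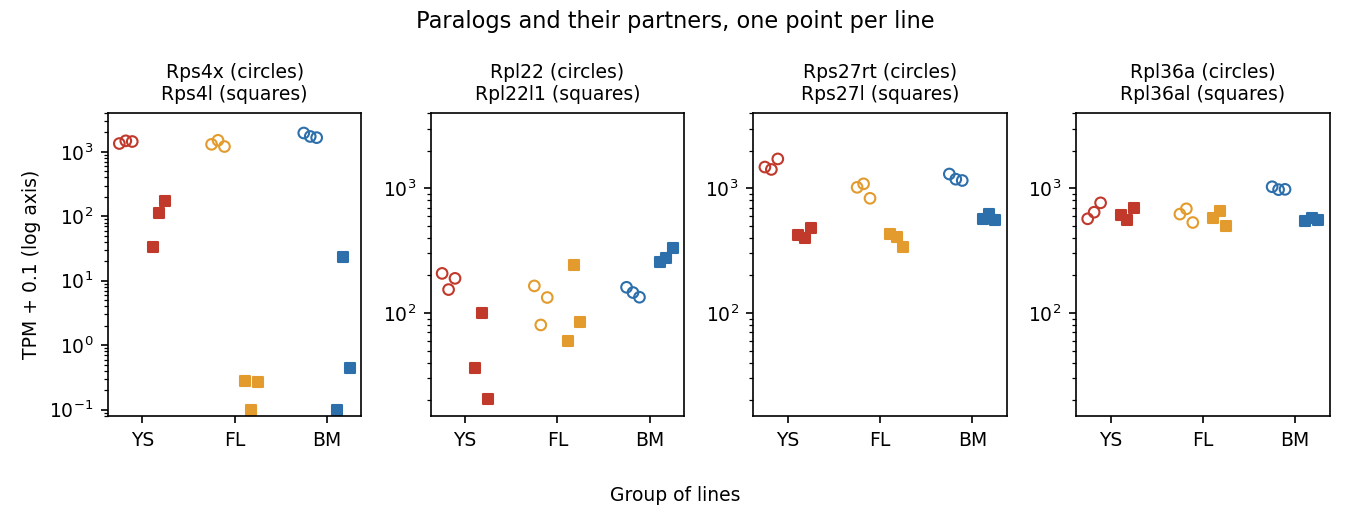
TPM + 0.1 on a log axis for 4 paralogs (filled squares) and a partner or relative (open circles), 1 point per line, grouped as YS, FL and BM. Rps4l is high in YS lines and, at 23.3 TPM, in BM line 2, Rpl22l1 is highest in BM lines, and Rpl36al stays level while Rpl36a is higher in BM lines.

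Several members with large differences lay on the same chromosomes, so each member was set beside its neighbours, the 10 tested genes on either side in RefSeq order that are no members. All 4 X-linked core genes, Rpl10, Rpl36a, Rpl39 and Rps4x, had negative differences of YS and FL from BM lines, with a median of −0.46 and −0.56, where the other X-linked genes had medians of −0.16 and −0.03. Both core genes of chromosome 18, Rpl17 and Rps14, were lower too, with medians of −0.55 and −0.71 against −0.30 and −0.12 for the other genes. Rpl17 fell by 0.61 beside neighbours with a median of −0.55 between YS and BM lines, whereas Rps14 fell by 0.50 beside neighbours at −0.03. Rpl39 was at −0.78 beside neighbours at −0.32 between YS and BM lines. In FL against BM lines Rpl39 was at −0.84 beside neighbours at −0.11, Rpl17 at −0.76 beside −0.37 and Rps14 at −0.65 beside −0.15. On chromosome 9 the median difference of YS from BM lines was 0.49 for the other genes and 0.42 for the core genes. Rpl4 (0.55) and Rpl29 (0.63) lay beside neighbours at 0.62 and 0.68, while Rps27l of the same chromosome was at −0.44 beside neighbours at 0.34.

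Over all calls, the share of members whose neighbours had the same sign was above that of all called genes in 3 of 4 sets of calls, a difference that was not tested. The neighbours' median had the sign of the member in 14 of 15 higher and 7 of 9 lower members between YS and BM lines, where this held for 84.8% and 54.8% of all called genes. It held for 7 of 11 lower members between FL and BM lines (51.3% of all called genes) and for 18 of 24 higher members between YS and FL lines (79.1%). Rplp0, Rps3a1 and Rps6, among the named members higher in YS than in FL lines, had neighbours at 0.04, 0.19 and −0.18.

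Single lines also differed from their group in blocks of neighbouring genes. In FL line 2, Rpl11 was 0.63 and Rpl22 was 0.58 below the mean of the FL lines on the log2 scale, beside neighbours on chromosome 4 that were 0.63 and 0.54 below it. In the same line, Rpl23, Rpl38, Rpl19, Rpl23a and Rpl27 of chromosome 11 were 0.48, 0.42, 0.41, 0.31 and 0.29 above that mean, beside neighbours 0.29 to 0.40 above it. In YS line 1, in which most members were highest, Rpl10 was 0.34 below the mean of the YS lines beside X-linked neighbours 0.40 below it. The part of such blocks in the group differences of the members was not tested.

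**Figure D5:**
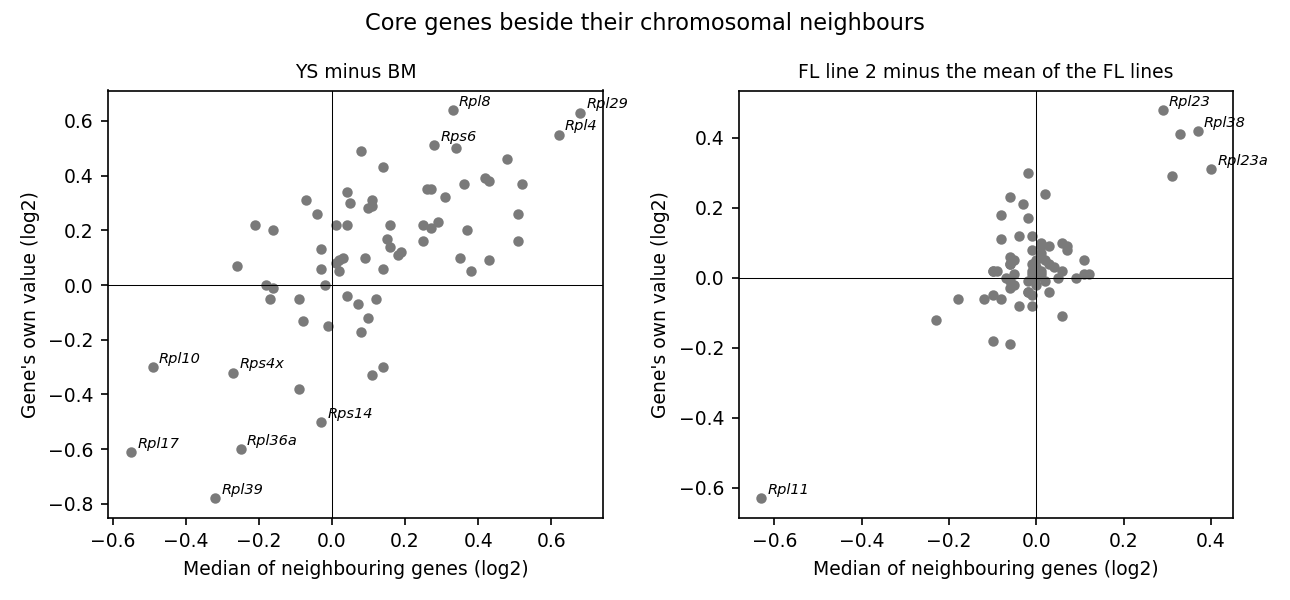
Each point is 1 of the 71 core genes with a mean of at least 200 TPM, with the median of its chromosomal neighbours on the x axis and its own value on the y axis (both log2), for YS minus BM lines (left) and FL line 2 minus the mean of the FL lines (right). Rpl4 and Rpl29 lie beside neighbours at 0.62 and 0.68 and Rpl17 beside neighbours at −0.55 on the left, and Rpl11 at −0.63 lies beside neighbours at −0.63 on the right.

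Ribosomal proteins outside the symbol rule and other genes of translation gave a mixed picture. Fau, which encodes RPS30 as a fusion, was at 950.0, 749 and 732 TPM in YS, 578, 683 and 606 TPM in FL and 1179, 1128 and 1200.0 TPM in BM, lower in YS (−0.54 ± 0.13 (SE), adjusted p = 0.017) and FL than in BM lines (−0.91 ± 0.13 (SE), adjusted p = 0.0023). Rack1, listed under its earlier symbol Gnb2l1, was at 1656, 1405 and 1459.6 TPM in YS, 1192, 1064 and 1139.8 TPM in FL and 1189, 1235 and 1198 TPM in BM, higher in YS than in BM (0.32 ± 0.10 (SE), adjusted p = 0.053) and FL lines (0.41 ± 0.10 (SE), adjusted p = 0.061).

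Among 34 tested initiation factors, 15 (44.1%) were higher and 1 (2.94%) lower in YS than in BM lines, where 23.5% and 14.4% of all tested genes were called. In FL against BM lines 6 (17.6%) were higher and 5 (14.7%) lower, where 17% and 10.6% of all tested genes were called. For YS against FL lines the counts were 8 (23.5%) and 0 (0%), against 6.2% and 6.56%. The same shares of all tested genes stand beside the other lists of this paragraph. The largest differences between YS and BM lines were those of the eIF3 subunits Eif3g (1.13), Eif3b (0.74), Eif3d (0.65) and Eif3i (0.62). Of 12 tested elongation, termination and related genes, 1 (8.33%) was lower in YS than in BM lines (Eif5a2, −2.31). In FL against BM lines 2 (16.7%) were lower (Eef1g, −0.80, and Pabpc1, −0.50). The same 2 (16.7%) were higher in YS than in FL lines (0.68 and 0.71). A further list of 12 tested genes held genes of mTOR signaling and of the control of pyrimidine-tract mRNAs, with Myc added. Of these, 4 (33.3%) were higher and 1 (8.33%) lower in YS than in BM lines. Larp1, which binds the start of pyrimidine-tract mRNAs, was higher by 0.62, Rptor by 0.60, Larp4 by 0.57 and Mtor by 0.54. The S6 kinase gene Rps6kb2 differed by −0.67. In FL against BM lines 2 (16.7%) were higher and 1 (8.33%) lower, and in YS against FL lines 1 (8.33%) was higher (Rptor, 0.80).

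The 77 proteins of the mitochondrial ribosome, the separate ribosome that reads mitochondrial mRNAs, took 0.59% to 0.69% of TPM in all lines. Of them, 24 (31.2%) were higher and 7 (9.09%) lower in YS than in BM lines, where 23.5% and 14.4% of all tested genes were called. In FL against BM lines 9 (11.7%) were higher and 7 (9.09%) lower, both below the 17% and 10.6% of all tested genes. For YS against FL lines the counts were 5 (6.49%) and 3 (3.9%), against 6.2% and 6.56%. The medians of these 77 genes were 0.19, 0.12 and 0.13, against 0.11, 0.09 and 0.02 over all tested genes. Between FL and BM lines the cytosolic family, at −0.23, thus had the other sign, a difference that was not tested.

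The start of these genes was read from RefSeq windows of GRCm38.p6, available for 67 of the 88 members. The windows below hold 15 bases before and 15 from the annotated start on, and capitals mark the longest unbroken run of C or T, the first where runs tie. They show genes with a classical pyrimidine start (Rps6, Rpl15, Rpl28), Rps27 beside its copy Rps27rt, the pair Rpl22 and Rpl22l1, and Rps4x and Rpl39 of the X chromosome, which were lower in YS and FL than in BM lines. For Rpl22 the first of its annotated starts is shown. In Rps27rt an unmarked run as long as the marked one, 6 bases, begins at base 1. Rps27rt thus also has a C at base 1 followed by C or T up to base 5. The Rpl22 window holds an unmarked run of equal length after the start.
Rps6 (chr4:86857353-86857382, minus strand): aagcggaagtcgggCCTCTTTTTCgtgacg
Rpl15 (chr14:18270972-18271001, minus strand): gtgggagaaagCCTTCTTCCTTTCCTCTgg
Rpl28 (chr7:4792950-4792979, plus strand): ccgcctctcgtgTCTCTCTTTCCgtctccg
Rps27 (chr3:90213634-90213663, minus strand): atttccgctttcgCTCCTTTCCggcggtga
Rps27rt (chr9:114982725-114982754, minus strand): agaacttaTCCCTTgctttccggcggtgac
Rpl22 (chr4:152324421-152324450, plus strand): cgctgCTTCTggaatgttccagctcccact
Rpl22l1 (chr3:28805493-28805522, plus strand): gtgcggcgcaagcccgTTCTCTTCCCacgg
Rps4x (chrX:102189377-102189406, minus strand): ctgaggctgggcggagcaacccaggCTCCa
Rpl39 (chrX:37085208-37085237, minus strand): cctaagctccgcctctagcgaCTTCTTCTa

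A long run of at least 8 pyrimidines lay within these 30 bases in 25 of 57 core genes, or 43.9% (Wilson 95% interval 31.8% to 56.7%, counting error only), against 13.9% of the 27025 genes with a window. A C at base 1 followed by C or T up to base 5 was found in 13 of 57, or 22.8% (13.8% to 35.2%), against 3.01% of all genes and 0 of 68 mitochondrial ribosomal protein genes, which allows a share of up to 5.35% (Wilson). In Rps6 the run began at the base before the start and in Rpl15 it spanned 17 bases, whereas no run over 5 bases was found around the starts of Rpl22 and Rps4x. Rpl22l1 had a run of 10 bases from base 2 on. Of the 15 core genes with a window that were called higher in YS than in FL lines, 7 had a long run, and of the 42 not called 18 had one. The annotated start can differ from the start used in these cells, and a match describes the letters only.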

How the data were processed

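Poly(A) RNA of 9 macrophage lines (3 YS, 3 FL, 3 BM) was sequenced as directional libraries with single 75 nt reads. The TPM values were deposited by the authors as 1 table. The submitters' processing notes name Trim Galore 0.6.6, STAR 2.7.9a and RSEM 1.3.3, and the genome build was not given in the sources used here. RSEM apportions reads among near-identical copies, and TPM keeps no depth, so the number of reads per library is unknown and no counting interval can be given for a level.

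Log2(TPM + 1) of genes at 1 TPM or more in at least 3 libraries was fitted in limma 3.58.1 (R 4.3.3, trend, all 9 libraries, no covariate), with Benjamini-Hochberg adjustment over all tested genes in each comparison and calls at adjusted p under 0.1. This procedure was tested on simulated data. Paralog ratios used an offset of 0.01 TPM. Copies were found with 95% identity or more over 90% of a coding sequence of GENCODE M21. Chromosomes, gene order and start windows came from RefSeq GRCm38.p6, matched by symbol.

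Members and gene lists were chosen with earlier results of these data known. Named genes were the paralogs reaching 1 TPM, Rps19bp1, the 3 highest and 3 lowest core genes of each subunit, the 5 largest called rises and falls in each comparison, and members with a role outside or at a known site of the ribosome. Genes named for their blocks of neighbours, and Rps2, were chosen after their values were seen. Alternatives changed the pseudocount, filter, scaling, trend, libraries in the fit, threshold and replicate block. Adding near-identical copies together, and setting Rps27l against the sum of Rps27 and Rps27rt, were added after seeing the data.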

Additional observations from a re-analysis of the deposited data

How the results depend on the processing

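No called difference among the named genes changed sign. With near-identical copies added, uncalled differences did for Rpl26 (YS-BM −2.50 to 0.14, YS-FL −0.96 to 0.39), Rpl30 (YS-BM −0.11 to 0.14, FL-BM 0.21 to −0.26, YS-FL −0.32 to 0.40), Rpl34 (FL-BM 0.47 to −0.24, YS-FL −0.49 to 0.17) and Rps27 (FL-BM 0.64 to −0.31). The 3 core medians kept their direction under every alternative run. Counts of calls depended on single libraries and on the scaling, and TPM without read depth limits what can be said of low genes. Without a filter the fit called 4 members higher and 5 lower in YS than in BM lines, 7 lower in FL than in BM lines and 4 higher in YS than in FL lines. It called 8.28%, 5.25%, 3.94% and 1.01% of all tested genes in the same order. With median-of-ratios scaling 5 were higher in YS than in BM lines (core median 0.03) and 29 lower in FL than in BM lines. The shares of all tested genes were 18.1% and 13.6%. At a false discovery rate of 0.05, 4 were higher in YS than in BM and 7 higher in YS than in FL lines. The share of all tested genes at that threshold is not given here. Quantile normalization gave 1 member higher in FL than in BM lines, where 12.3% of all tested genes were called higher. With only the 6 libraries of a comparison, 3 were higher, 31 lower and 1 past 2-fold between FL and BM lines. That fit called 25.2% of all tested genes higher and 15.4% lower. Such a fit called 1 member higher in YS than in FL lines, where 0.408% of all tested genes were called higher.

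Leaving out 1 library at a time, the range of members called higher was 2 to 16 (YS against BM), 0 to 2 (FL against BM) and 2 to 29 (YS against FL), and that of members called lower was 5 to 12, 6 to 26 and 0 to 2. Of all tested genes, 13.3% to 25%, 9.05% to 23.2% and 1.06% to 7.57% were called higher in these fits. The shares called lower were 8.41% to 15.4%, 5.99% to 14% and 1.28% to 7.74%. Members past 2-fold numbered 2 to 3, 0 to 1 and 1 to 3, and the core medians lay at 0.07 to 0.23, −0.24 to −0.18 and 0.22 to 0.38. Without YS line 2, 2 members were called lower in YS than in FL lines and 3 past 2-fold, and without YS line 3, 2 were past 2-fold. Without YS line 2 or FL line 2, 1 member passed 2-fold between FL and BM lines. Of the 20 named differences, 10 kept their call in every alternative.

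Across groups, the deviations of same-numbered lines correlated between −0.118 and 0.088 and those of differently numbered lines between −0.138 and 0.118. The labels do not say whether lines of the same number were processed together. With the replicate block the fit called 14 members higher and 8 lower in YS than in BM lines, 11 lower in FL than in BM lines with 1 past 2-fold, and 20 higher in YS than in FL lines. It called 23%, 14.1%, 10.3% and 5.09% of all tested genes in the same order. Counting pyrimidine runs from 6 bases on gave 61.4% of core genes in place of 43.9%.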
